A study of Mus musculus with 6 samples.

Results

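*Apoe*, *Abca1*, *Abcg1*, *Trem2*, *Tyrobp*, *Gpnmb*, *Lgals3*, *Fabp5*, *Lipa* and *Nr1h3* are genes with which macrophages sense, take in, break down and release lipid. They were taken by symbol and followed in RNA sequencing of the mouse heart after myocardial infarction (MI). All 10 were found among the 17441 genes listed in any library, and all 10 were among the 13120 genes that were tested. Heart tissue below the ligature was collected 3 days after surgery from male mice labelled 12 weeks old, on a C57BL/6 background. The WT Sham group had a sham operation, the WT MI group had a coronary artery ligated, and the *Card9* KO MI group had the same ligation in mice labelled as *Card9* knockouts. The study's WT controls were littermates or C57BL/6 mice, and the part of *Card9* that was removed is not given in the sources used here. Each group had 2 libraries. The sources used here do not say whether these came from separate animals, so the p-values measure only the spread between libraries, which may be technical. WT infarcts and *Card9* KO infarcts below are the WT MI libraries and those of *Card9* KO MI, and sham hearts are those of WT Sham. Sham-operated *Card9* KO mice were not analysed here, and the genotype and the ligation cannot be told apart when *Card9* KO MI is set against WT Sham.

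A macrophage that has engulfed dead cells or debris carries the lipid to its lysosomes, where lysosomal acid lipase (*Lipa*) frees cholesterol from its esters. Oxidised forms of that cholesterol switch on the liver X receptors, of which *Nr1h3* encodes LXR alpha, and these in turn raise the transporters *Abca1* and *Abcg1* and the lipid carrier *Apoe*, which take cholesterol out of the cell. TREM2 is a surface receptor for lipids and lipoproteins that signals through its partner TYROBP, and macrophages with high *Trem2*, *Gpnmb*, *Lgals3* and *Fabp5* are often described as lipid-associated macrophages. In the infarcted heart, cells of this kind are known to clear dying cardiomyocytes.

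In WT MI, 9 of the 10 genes rose over WT Sham, from 2.12-fold for *Abca1* to 41.0-fold for *Lgals3*, and *Nr1h3* did not pass the test. Of all genes tested, 27.7% rose in this comparison. In the libraries labelled as knockouts, 9 of the 10 had both libraries above both WT MI libraries, as did 30.8% of all genes. *Gpnmb* had the largest fold of these at 3.39, followed by *Fabp5* at 2.35, but none of the 10 differences between *Card9* KO MI and WT MI passed the adjusted threshold, where 0.816% of all genes were called higher. Summed over the 10 genes, the levels were 341 and 276 FPKM in the sham hearts, 954 and 1136 in the WT infarcts and 2193 and 1608 in the *Card9* KO infarcts. FPKM is a level scaled for gene length and library size, so levels of genes can be set beside each other within a library. Between libraries it is relative to each total, so a shift of abundant genes moves all others. A fold is the ratio of mean FPKM of 2 groups, whereas a log2 fold change is a difference on the scale of log2(FPKM + 1), which understates the change of lowly expressed genes.

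**Figure D1:**
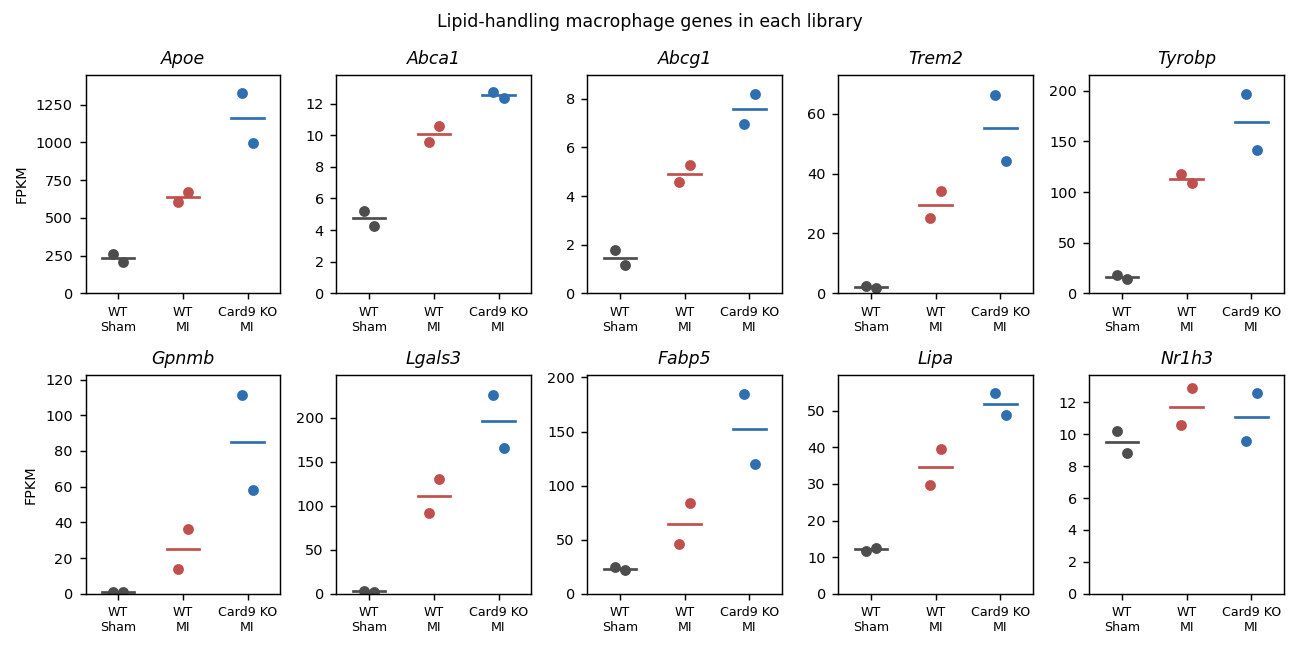
FPKM (vertical axes, linear and starting at 0, a scale of its own in each panel) of the 10 genes in each library, by group. Points are libraries, with replicate 1 on the left, and bars are means of 2. Every gene but *Nr1h3* has its *Card9* KO MI points above its WT MI points, and *Gpnmb* and *Lgals3* lie close to 0 in WT Sham.

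The label of the *Card9* KO MI group was not borne out by the level of *Card9*, the adaptor that relays signals of fungal-sensing receptors (chr2:26207696-26216438, mm9, minus strand). *Card9* was 0.99 and 1.03 FPKM in the sham hearts, 3.39 and 5.08 in the WT infarcts and 9.85 and 6.94 in the *Card9* KO infarcts. Both libraries labelled as knockouts therefore lay above both WT MI libraries, with a log2 fold change of 0.85 (SE 0.23, adjusted p = 0.11, limma). Gene-level values do not show which exons the reads came from. The name of the group follows the labels, on which each direction relative to WT MI depends. The estimated depth was 3001501 to 4290363 fragments per library, and the WT Sham libraries were the shallowest.

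RNA of macrophages was present in every library and higher after MI: 16 of 18 macrophage markers rose in WT MI over WT Sham and 0 fell. *Lyz2* (a lysozyme), *Cd68* (a lysosomal protein of macrophages) and *Ccr2* (the receptor that brings monocytes into tissue) had log2 fold changes of 2.38, 3.41 and 3.20. The summed FPKM of the 18 markers was 462 and 396 in the sham hearts, 1542 and 1957 in the WT infarcts and 3096 and 2256 in the *Card9* KO infarcts. In tissue RNA, more macrophages, more RNA of a gene per macrophage and RNA of that gene from other cells cannot be told apart.

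*Abca1* encodes the transporter that loads cholesterol onto lipid-poor apolipoproteins. The 250 bases before its start (chr4:53159896-53160145, GRCm38.p6, minus strand, RefSeq) are shown because they hold a direct repeat of the kind that liver X receptors bind. The capitals mark this DR4 element, which consists of a pair of hexamers, each NGGTCA or NGGTTA, separated by 4 bases and searched on both strands.
Abca1: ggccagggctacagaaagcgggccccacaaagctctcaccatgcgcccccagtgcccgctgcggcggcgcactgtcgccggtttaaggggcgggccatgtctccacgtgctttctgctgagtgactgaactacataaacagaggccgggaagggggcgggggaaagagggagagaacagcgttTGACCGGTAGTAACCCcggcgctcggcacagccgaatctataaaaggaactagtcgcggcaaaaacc
The match lies 67 to 52 bases before the start, on the opposite strand to the gene. Among 32851 mouse promoters of the same length, 0.192% held such a match, and among the 7 members with a promoter sequence *Abca1* was the one with a match. The pattern was written with this well-known *Abca1* element in mind, after a stricter DR4 with AGGTCA as both hexamers (0.0152% of all promoters) had given no match in the members. The upstream sequence of *Gpnmb* (chr6:49036268-49036517, plus strand), the member with the largest fold between the infarct groups, is shown beside it because it held no match to any of the 6 motifs searched.
Gpnmb: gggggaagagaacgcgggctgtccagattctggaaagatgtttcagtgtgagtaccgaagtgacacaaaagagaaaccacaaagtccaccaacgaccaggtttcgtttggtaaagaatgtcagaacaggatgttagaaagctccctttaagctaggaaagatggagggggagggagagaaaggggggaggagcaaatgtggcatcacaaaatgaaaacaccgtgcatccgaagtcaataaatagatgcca
The other 4 motifs were TCACGTG and TCATGTG, letters recognised by the MiT/TFE factors of the lysosome (3.13% and 3.25% of all promoters), the PU.1 letters GAGGAAGT (2.44%) and the AP-1 letters TGAGTCA (4.46%), on both strands. None of the 10 promoter windows of the 7 members held any of these 4, so no matches overlapped. A match is a description of the letters, and the lack of one says only that they are not in this window.

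*Nr1h3*, at the head of the cholesterol release pathway, passed the test in no comparison (chr2:91024218-91042991, mm9, minus strand). It was 10.20 and 8.81 FPKM in the sham hearts, 10.59 and 12.87 in the WT infarcts and 9.56 and 12.58 in the *Card9* KO infarcts. The infarct groups overlapped, and the lower WT MI library lay just above the higher WT Sham library. The log2 fold change was 0.27 for WT MI against WT Sham (SE 0.17, 95% interval -0.13 to 0.67, adjusted p = 0.25) and -0.08 for *Card9* KO MI against WT MI (SE 0.17, 95% interval -0.48 to 0.32, adjusted p = 0.84). Its gene overlaps *Gm13783* on the same strand, so reads could be shared if both were counted.

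The transporters and the lipid carrier controlled by liver X receptors all rose after MI. *Abca1* (chr4:53043659-53172767, mm9, minus strand) was 5.20 and 4.28 FPKM in the sham hearts, 9.55 and 10.55 in the WT infarcts and 12.75 and 12.37 in the *Card9* KO infarcts. The 3 groups did not overlap and replicates were close, yet the step between the infarct groups was the smallest of those 9 genes. It rose 2.12-fold in WT MI (log2 fold change 0.95, SE 0.14, adjusted p = 0.0020) and was 1.25-fold higher in the *Card9* KO infarcts than in WT MI (log2 fold change 0.30, SE 0.14, adjusted p = 0.30). *Abcg1*, which passes cholesterol on to mature high-density lipoprotein (chr17:31194643-31252722, mm9, plus strand), was 1.77 and 1.18 FPKM in the sham hearts, 4.58 and 5.27 in the WT infarcts and 6.98 and 8.22 in the *Card9* KO infarcts. It rose 3.34-fold in WT MI (log2 fold change 1.27, SE 0.19, adjusted p = 0.0019) and was 1.54-fold higher in the *Card9* KO infarcts than in WT MI (log2 fold change 0.54, SE 0.19, adjusted p = 0.18). *Abcg1* gained on *Abca1* after MI, from 34.0 and 27.6 FPKM per 100 FPKM of *Abca1* in WT Sham to 48.0 and 50.0 in the WT infarcts and 54.7 and 66.5 in the *Card9* KO infarcts. These ratios were not tested.

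*Apoe*, the apolipoprotein that carries the released cholesterol, was by far the most abundant of the group (chr7:20281458-20284515, mm9, minus strand). It was 262.65 and 208.38 FPKM in the sham hearts, 606.06 and 673.23 in the WT infarcts and 1324.19 and 996.20 in the *Card9* KO infarcts. No groups overlapped, and the spread was widest in *Card9* KO MI. By level, *Apoe* ranked 265 and 319 of 13120 genes in the sham hearts, 98 and 88 in the WT infarcts and 31 and 43 in the *Card9* KO infarcts. It rose 2.72-fold in WT MI over WT Sham (log2 fold change 1.45, SE 0.16, adjusted p = 4.8e-04). The mean was 1160.2 ± 232 FPKM in *Card9* KO MI against 639.6 ± 47.5 in WT MI (SD, n = 2), or 1.81-fold (log2 fold change 0.85, SE 0.16, adjusted p = 0.057), the smallest adjusted p of the 10 genes. With an added FPKM of 5, a filter on a mean FPKM of at least 5, only genes listed in all libraries, or quantile normalization, this difference did pass, at adjusted p = 0.047, 0.039, 0.036 and 0.034 (limma).

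The lipid receptor and its signalling partner had larger folds after MI than the transporters, a difference between genes that was not tested. *Trem2* (chr17:48485726-48493472, mm9, plus strand) was 2.36 and 1.84 FPKM in the sham hearts, 25.10 and 34.21 in the WT infarcts and 66.38 and 44.07 in the *Card9* KO infarcts. Sham hearts held about 8.1 and 6.01 fragments of it, so its baseline is imprecise. It rose 14.1-fold in WT MI (log2 fold change 3.29, SE 0.22, adjusted p = 6.3e-05) and was 1.86-fold higher in the *Card9* KO infarcts than in WT MI (log2 fold change 0.86, SE 0.22, adjusted p = 0.10). *Tyrobp*, the adaptor of TREM2 and of other myeloid receptors (chr7:31198807-31202596, mm9, plus strand), was 18.07 and 14.14 FPKM in the sham hearts, 117.47 and 109.00 in the WT infarcts and 196.68 and 141.78 in the *Card9* KO infarcts. It rose 7.03-fold in WT MI (log2 fold change 2.75, SE 0.17, adjusted p = 4.8e-05) and was 1.49-fold higher in the *Card9* KO infarcts than in WT MI (log2 fold change 0.56, SE 0.17, adjusted p = 0.14). *Trem2* stood at 13.1 and 13.0 FPKM per 100 FPKM of *Tyrobp* in the sham hearts, at 21.4 and 31.4 in the WT infarcts and at 33.8 and 31.1 in the *Card9* KO infarcts. Both infarct groups lay above WT Sham in this ratio, while the infarct groups overlapped.

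*Gpnmb* and *Lgals3* were nearly silent in sham hearts and had the largest folds of the 10 genes over WT Sham. *Gpnmb* encodes a transmembrane glycoprotein of lysosomes and phagosomes (chr6:48986517-49020928, mm9, plus strand). It was 1.07 and 0.69 FPKM in the sham hearts, 13.62 and 36.39 in the WT infarcts and 111.32 and 58.20 in the *Card9* KO infarcts. The groups did not overlap, but the libraries of a group differed by 2.67 times in WT MI and by 1.91 times in *Card9* KO MI. The WT Sham values stand for about 12.8 and 7.87 fragments. *Gpnmb* rose 28.4-fold in WT MI (log2 fold change 3.64, SE 0.44, adjusted p = 6.8e-04). Against WT MI it was 3.39-fold higher in *Card9* KO MI (log2 fold change 1.80, SE 0.44, 95% interval 0.78 to 2.82, adjusted p = 0.094), which placed it 21st of 13120 genes by log2 fold change. By level, *Gpnmb* moved from ranks 11693 and 12180 in WT Sham to 639 and 1273 in *Card9* KO MI.

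*Lgals3* encodes galectin-3, a sugar-binding protein that macrophages secrete and that gathers at damaged lysosomes (chr14:47987426-48005835, mm9, plus strand). It was 3.24 and 2.17 FPKM in the sham hearts, 91.58 and 130.49 in the WT infarcts and 225.58 and 165.93 in the *Card9* KO infarcts. The jump from WT Sham was 41.0-fold (log2 fold change 4.91, SE 0.22, adjusted p = 1.7e-05), the 9th highest log2 fold change of all genes tested. The WT Sham values stand for about 14.5 and 9.24 fragments, so the size of each fold over WT Sham is imprecise. *Lgals3* was 1.76-fold higher in the *Card9* KO infarcts than in WT MI (log2 fold change 0.82, SE 0.22, adjusted p = 0.11).

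*Fabp5* and *Lipa* handle fatty acids inside the cell. *Fabp5* is a fatty acid binding protein that carries them through the cytosol (chr3:10012548-10016607, mm9, plus strand). It was 24.30 and 21.98 FPKM in the sham hearts, 45.53 and 84.07 in the WT infarcts and 184.67 and 120.27 in the *Card9* KO infarcts. WT MI replicates differed by 1.85 times, and both still lay between the other groups. It rose 2.80-fold in WT MI (log2 fold change 1.38, SE 0.29, adjusted p = 0.0079) and was 2.35-fold higher in the *Card9* KO infarcts than in WT MI (log2 fold change 1.25, SE 0.29, 95% interval 0.59 to 1.92, adjusted p = 0.083). *Lipa* (chr19:34566808-34601964, mm9, minus strand) was 11.67 and 12.52 FPKM in the sham hearts, 29.84 and 39.65 in the WT infarcts and 54.83 and 48.76 in the *Card9* KO infarcts. It rose 2.87-fold in WT MI (log2 fold change 1.44, SE 0.15, adjusted p = 3.5e-04) and was 1.49-fold higher in the *Card9* KO infarcts than in WT MI (log2 fold change 0.57, SE 0.15, adjusted p = 0.10).

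In WT MI against WT Sham, calls were common over all genes tested, with 27.7% higher and 9.39% lower. Of the 10 members 9 rose and 0 fell, and their median was 1.44 on the log2 scale against 0.19 for all genes. With any 1 of the 6 libraries left out, 9 were still called higher. All 10 had both WT MI libraries above both WT Sham libraries, which was true of 48.3% of all genes. Upper-quartile scaling called 2603 genes higher and 2159 lower, scaling without the 100 most abundant genes 2869 and 1830, and quantile normalization 2198 and 2447, in place of 3637 and 1232. The count of members called was 9 under each of these.

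Between the infarct groups calls were rare, with 0.816% of genes higher and 0.587% lower in *Card9* KO MI. Of the 10 members 0 were called by limma in either direction. At an unadjusted p below 0.05, 8 were higher, which was true of 11.5% of all genes, and *Abca1* and *Nr1h3* were the others. At that threshold 0 members and 1125 of the 13120 genes tested were lower. Both *Card9* KO MI libraries lay above both WT MI libraries for 9 members and for 30.8% of all genes. The median log2 fold change of the members was 0.70, against 0.04 for all genes.

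**Figure D2:**
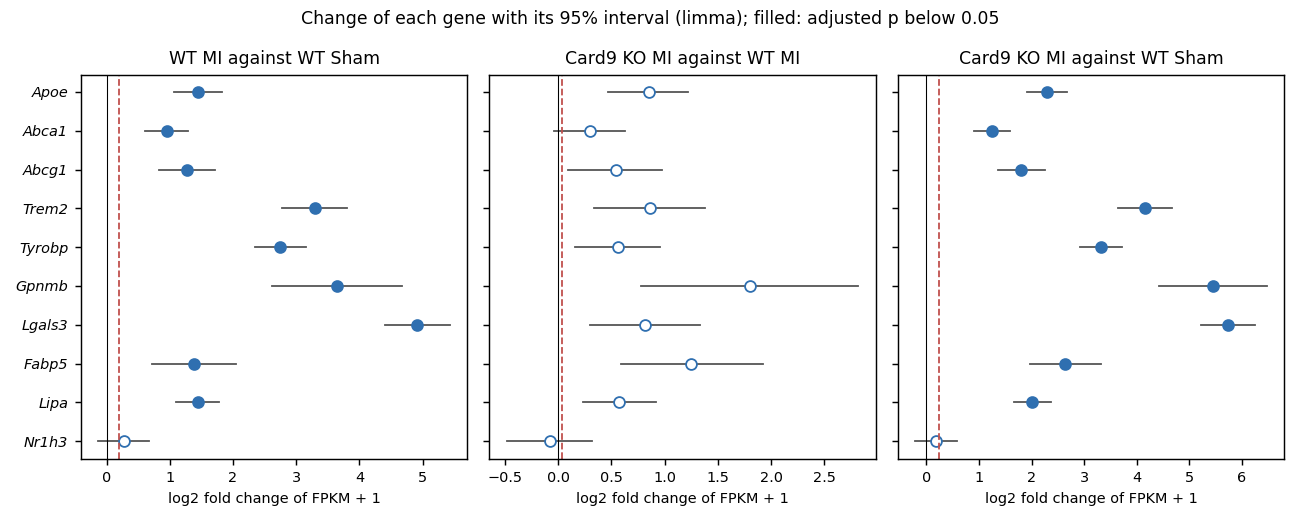
Log2 fold change of FPKM + 1 (horizontal axes, a scale of their own in each panel) of the 10 genes in the 3 comparisons, from limma. Lines are 95% intervals, filled points have an adjusted p below 0.05, and the dashed line is the median of all genes. The points of 9 genes are filled in both comparisons with WT Sham and none is filled for *Card9* KO MI against WT MI.

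Against WT Sham, the *Card9* KO MI libraries had the same 9 genes higher, by 2.65-fold for *Abca1* (log2 fold change 1.24, adjusted p = 3.4e-04) up to 96.3-fold for *Gpnmb* (log2 fold change 5.45, SE 0.44, adjusted p = 7.0e-05). Over all genes, 34.8% were called higher and 14.3% lower. *Lgals3* was 72.4-fold higher and ranked 5th of all genes by log2 fold change, *Gpnmb* ranked 7th and *Trem2*, at 26.3-fold, ranked 23rd. *Nr1h3* had a log2 fold change of 0.19 (95% interval -0.21 to 0.59, adjusted p = 0.39), with a negative value under upper-quartile scaling and quantile normalization. The comparisons share libraries: WT MI stands in the first 2 and WT Sham in the first and the third. This log2 fold change is therefore the sum of the other 2 and gives no separate evidence.

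The order of the 10 genes by level changed with infarction. In WT Sham, *Apoe* (mean 236 FPKM) was followed by *Fabp5* (23.1 ± 1.64) and *Tyrobp* (16.1 ± 2.78), and *Gpnmb* was last (0.880 ± 0.269). In WT MI, *Tyrobp* (113 ± 5.99) and *Lgals3* (111 ± 27.5) stood behind *Apoe*, and these neighbours did not differ beyond their spread. In *Card9* KO MI, *Lgals3* (196 ± 42.2), *Tyrobp* (169 ± 38.8) and *Fabp5* (152 ± 45.5) overlapped each other across the libraries. *Gpnmb* (84.8 ± 37.6) and *Trem2* (55.2 ± 15.8) followed, also with overlap across the libraries. Within each library, however, these genes stood in this same order. They were at 225.58, 196.68, 184.67, 111.32 and 66.38 FPKM in replicate 1. In replicate 2 they were at 165.93, 141.78, 120.27, 58.20 and 44.07 FPKM. *Abca1*, *Abcg1* and *Nr1h3* stayed at or below a mean of 12.6 FPKM in every group (SD, n = 2 throughout).

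The replicates of a group moved together across the 10 genes. In WT MI, 9 of 10 genes were higher in replicate 2 than in replicate 1, and so were 14 of the 18 macrophage markers. In *Card9* KO MI, 8 of 10 genes were higher in replicate 1, as were 16 of the 18 macrophage markers. In WT Sham these counts for replicate 1 were 9 of 10 and 12 of 18. Over all genes tested, replicate 1 was the higher library in 51.7% of genes in WT Sham, 49.7% for WT MI and 57.3% for *Card9* KO MI. In these groups the libraries with more macrophage marker RNA thus also had more RNA of most of the 10 genes, and the part this had in the differences between groups was not tested.

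To describe the genes beside the macrophage content, each level was divided by the summed FPKM of the 18 macrophage markers in the same library. The sum is unweighted, so abundant markers count most. In WT MI, *Lyz2* alone made up 617.29 and 830.24 of the 1542 and 1957 FPKM. No test was run on the ratios, and they were not computed for all genes. The counts of members below therefore have no share over all genes on this scale. After MI in WT hearts, 4 genes lay higher relative to the markers and 6 lay lower, with no overlap. In FPKM itself, 6334 of 13120 genes tested lay higher and 2897 lay lower without overlap. *Trem2* was at 0.511% and 0.464% of the marker sum in WT Sham and at 1.63% and 1.75% in WT MI. *Lgals3* went from 0.702% and 0.548% to 5.94% and 6.67%, and *Gpnmb* and *Tyrobp* were the others that lay higher. *Apoe*, at 56.9% and 52.6% in WT Sham, was at 39.3% and 34.4% in WT MI, although its FPKM had risen. The 2.72-fold rise of *Apoe* was larger than that of *Csf1r* (2.09-fold) and smaller than that of *Lyz2* (5.26-fold). Relative to *Csf1r* alone, *Apoe* would thus lie higher after MI. Relative to the 18 markers it lay lower, with a log2 difference of -0.57. On the sum of *Adgre1*, *Csf1r*, *Cd68* and *Fcgr1* alone this was -1.21, also without overlap. *Nr1h3* showed the widest step down, from 2.21% and 2.22% to 0.687% and 0.658%. Its FPKM had not fallen, at 10.20 and 8.81 in WT Sham and 10.59 and 12.87 in WT MI. The marker sum had risen from 462 and 396 FPKM, and a gene of unchanged level then falls in this ratio.

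Between the infarct groups, 5 genes lay higher relative to the markers in *Card9* KO MI, 1 lay lower and 4 overlapped. In FPKM itself, 4038 of 13120 genes tested lay higher in *Card9* KO MI and 2875 lay lower without overlap. *Gpnmb* was at 0.883% and 1.86% of the marker sum in the WT infarcts and at 3.60% and 2.58% in the *Card9* KO infarcts, a log2 difference of 1.25. *Fabp5* was at 2.95% and 4.30% in the WT infarcts and at 5.96% and 5.33% in the *Card9* KO infarcts, a log2 difference of 0.66. *Trem2*, *Apoe* and *Lgals3* lay higher by smaller log2 differences of 0.28, 0.24 and 0.22, and *Nr1h3* lay lower, at 0.309% and 0.558% in *Card9* KO MI. In FPKM *Nr1h3* overlapped between the infarct groups, while the marker sum was higher in *Card9* KO MI. When only *Adgre1*, *Csf1r*, *Cd68* and *Fcgr1* made up the marker sum, the log2 differences were 1.10 for *Gpnmb* and 0.51 for *Fabp5* but 0.13, 0.09 and 0.07 for *Trem2*, *Apoe* and *Lgals3*. On that sum 3 genes (*Gpnmb*, *Fabp5* and *Trem2*) lay higher in *Card9* KO MI, *Nr1h3* and *Abca1* lay lower, 2 in all, and 5 overlapped, *Apoe* and *Lgals3* among them. The shorter sum lowered the step from WT Sham to WT MI by the same amount for every gene. That of *Tyrobp* went from 0.80 to 0.16, with overlapping groups on the shorter sum.

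**Figure D3:**
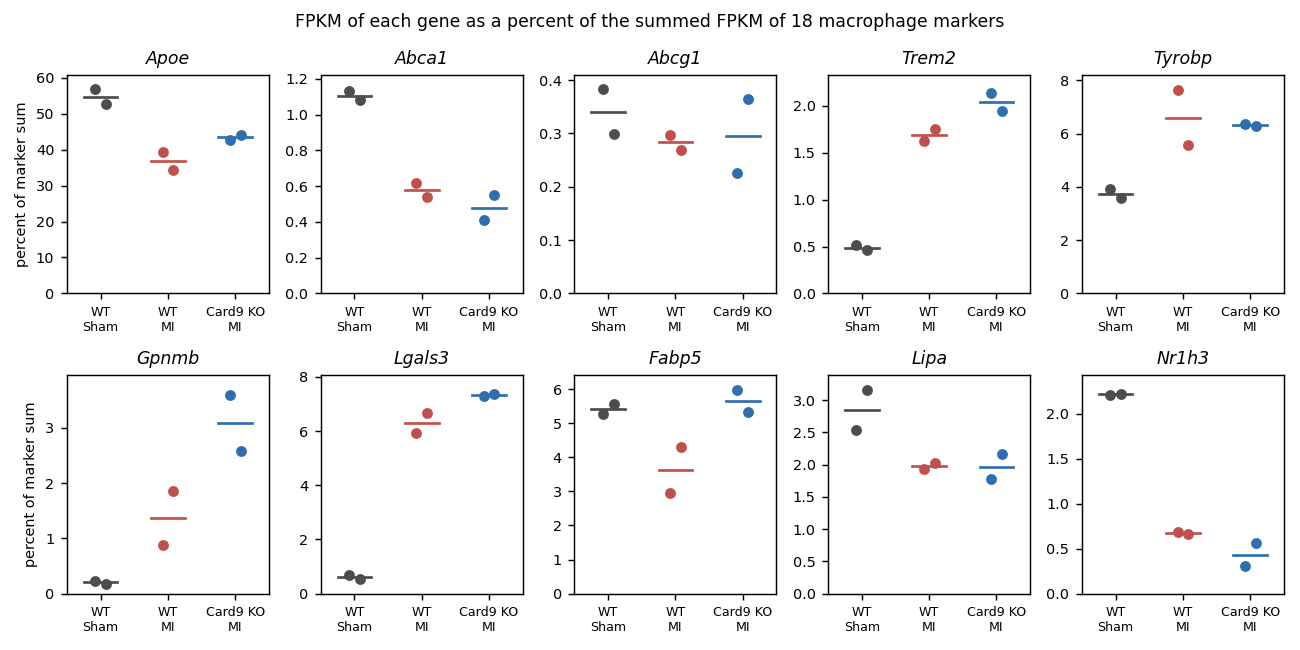
FPKM of each of the 10 genes as a percent of the summed FPKM of 18 macrophage markers (vertical axes, linear and starting at 0) in each library, with bars at the means of 2. *Trem2*, *Gpnmb* and *Lgals3* lie higher after MI in WT hearts on this scale while *Apoe*, *Abca1* and *Nr1h3* lie lower, and *Gpnmb* and *Fabp5* lie higher in *Card9* KO MI than in WT MI by log2 differences of 1.25 and 0.66.

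The other genes of each pathway were counted in the same way. Of 12 partners and targets of the liver X receptors, 5 rose and 2 fell in WT MI against WT Sham, with a median of 0.17 on the log2 scale. Those that rose numbered 3 when any 1 library of WT Sham or WT MI was left out and also with quantile normalization, which called 4 lower. *Apoc2*, an apolipoprotein gene beside *Apoe*, was not listed in either WT Sham library (taken as 0) and stood at 15.40 and 19.40 FPKM in the WT infarcts and 17.36 and 18.08 in the *Card9* KO infarcts. *Scd2*, a fatty acid desaturase, rose 4.81-fold (log2 fold change 2.02, adjusted p = 1.1e-04). *Lpl*, the lipase that frees fatty acids from lipoproteins, is abundant in heart muscle and fell by 0.68 on the log2 scale (adjusted p = 0.0026, limma). Between the infarct groups limma called 0 of the 12, and at an unadjusted p below 0.05 3 were higher and 2 lower. Of all 13120 genes tested, 1504 were higher and 1125 lower at that threshold, which is the background for the lists below as well. *Pltp*, a phospholipid transfer protein, was 27.58 and 26.25 FPKM in the WT infarcts and 55.18 and 36.27 in the *Card9* KO infarcts (log2 fold change 0.71, adjusted p = 0.097, limma).

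Of 12 genes that make or take up cholesterol, 8 rose in WT MI and 0 fell, with a median of 0.73. The count was 4 with quantile normalization, 5 without WT Sham replicate 2 and 3 without WT MI replicate 1. *Sqle*, the squalene epoxidase, rose by 1.29 on the log2 scale (adjusted p = 0.0040, limma). By limma the infarct groups gave 0 calls of 12, with a median of 0.13, and 1 gene was lower at an unadjusted p below 0.05. *Fdps*, which makes farnesyl diphosphate, was 23.58 and 22.00 FPKM in the WT infarcts and 15.45 and 16.68 in the *Card9* KO infarcts (log2 fold change -0.48, adjusted p = 0.097, limma).

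Of 20 other lysosomal genes, 13 rose in WT MI and 0 fell, with a median of 0.86. Each of the other scalings called 1 of them lower. *Ctss*, a protease abundant in myeloid cells, rose by 3.27 on the log2 scale (adjusted p = 3.6e-05), and *Ctsz*, another protease of this class, rose 5.05-fold (log2 fold change 2.28, adjusted p = 9.6e-05). Comparing the infarct groups, 2 of the 20 rose in *Card9* KO MI and 0 fell, with a median of 0.35, and at an unadjusted p below 0.05 11 were higher and 1 lower. *Npc2*, which hands cholesterol out of the lysosome, was 36.41 and 38.52 FPKM in the WT infarcts and 65.46 and 57.27 in the *Card9* KO infarcts (log2 fold change 0.69, adjusted p = 0.036, limma). With any 1 of the 4 infarct libraries left out, 0 of the 20 were called. Without WT Sham replicate 1 or without WT Sham replicate 2, 1 was.

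Scavenger receptors, receptors for dying cells and lipid droplet genes numbered 15, of which 9 rose and 1 fell in WT MI. Quantile normalization called 6 higher and 2 lower, and without WT Sham replicate 1 or without WT MI replicate 1 the counts were 6 and 0. *Msr1*, a scavenger receptor of macrophages, rose 19.3-fold (log2 fold change 3.40, adjusted p = 2.5e-05), and *Soat1*, which esterifies cholesterol for storage, rose 8.32-fold (log2 fold change 2.33, adjusted p = 2.5e-04). *Cd36*, a fatty acid receptor that heart muscle also uses, fell by 0.42 on the log2 scale (adjusted p = 0.020, limma). *Card9* KO MI against WT MI gave 0 calls by limma among the 15, with a median of 0.21, and 4 higher and 2 lower at an unadjusted p below 0.05. *Plin2*, which coats lipid droplets, was 85.03 and 95.68 FPKM in the WT infarcts and 161.39 and 119.45 in the *Card9* KO infarcts (log2 fold change 0.62, adjusted p = 0.097, limma).

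Signalling genes around TREM2 and TYROBP rose in nearly full number, 14 of 15 in WT MI with a median of 1.31. *Spi1*, which encodes PU.1, a lineage factor of myeloid cells, rose 4.95-fold (log2 fold change 2.19, adjusted p = 2.8e-04), and *Vav1*, an exchange factor below these receptors, rose 7.43-fold (log2 fold change 1.99, adjusted p = 4.5e-04). *Trem1*, a receptor that shares TYROBP and is known from neutrophils and inflammatory monocytes, was not listed in either sham library (taken as 0) and stood at 3.01 and 1.42 FPKM in the WT infarcts and at 1.07 and 0.64 in the *Card9* KO infarcts. For *Card9* KO MI against WT MI, limma called 0 of 15 and the median was 0.25, with 5 higher and 1 lower at an unadjusted p below 0.05. *Ms4a7*, a macrophage membrane protein that also stands in the marker list, was 10.68 and 16.33 FPKM in the WT infarcts and 43.27 and 37.52 in the *Card9* KO infarcts (log2 fold change 1.54, adjusted p = 0.053, limma). In 7 of 18 alternatives, among them without WT Sham replicate 1 and without WT Sham replicate 2, 1 gene of the list was called higher.

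The last list held 18 genes often named with lipid-associated macrophages, of which 17 could be tested. *Lpl*, *Plin2*, *Ctsb*, *Ctsd* and *Ctsl* also stand in the lists above, so the counts of these lists share genes. In WT MI 16 rose and 1, *Lpl*, fell, with a median of 1.44. *Spp1* (osteopontin) rose 125-fold (log2 fold change 6.68, adjusted p = 1.2e-05), and *Hmox1* (the heme-degrading oxygenase) rose 26.7-fold (log2 fold change 4.59, adjusted p = 1.1e-05). *Arg1*, an arginine-degrading enzyme of wound macrophages, rose 162-fold (log2 fold change 5.86, adjusted p = 9.7e-07). Between the infarct groups limma called 0 of 17 higher, with a median of 0.36, and 5 were higher and 2 lower at an unadjusted p below 0.05. *Arg1* went the other way from the members, at 90.27 and 86.30 FPKM in the WT infarcts and 47.43 and 44.34 in the *Card9* KO infarcts, and fell by 0.93 on the log2 scale (adjusted p = 0.021, limma), a call lost when any 1 of the 4 infarct libraries was left out.

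**Figure D4:**
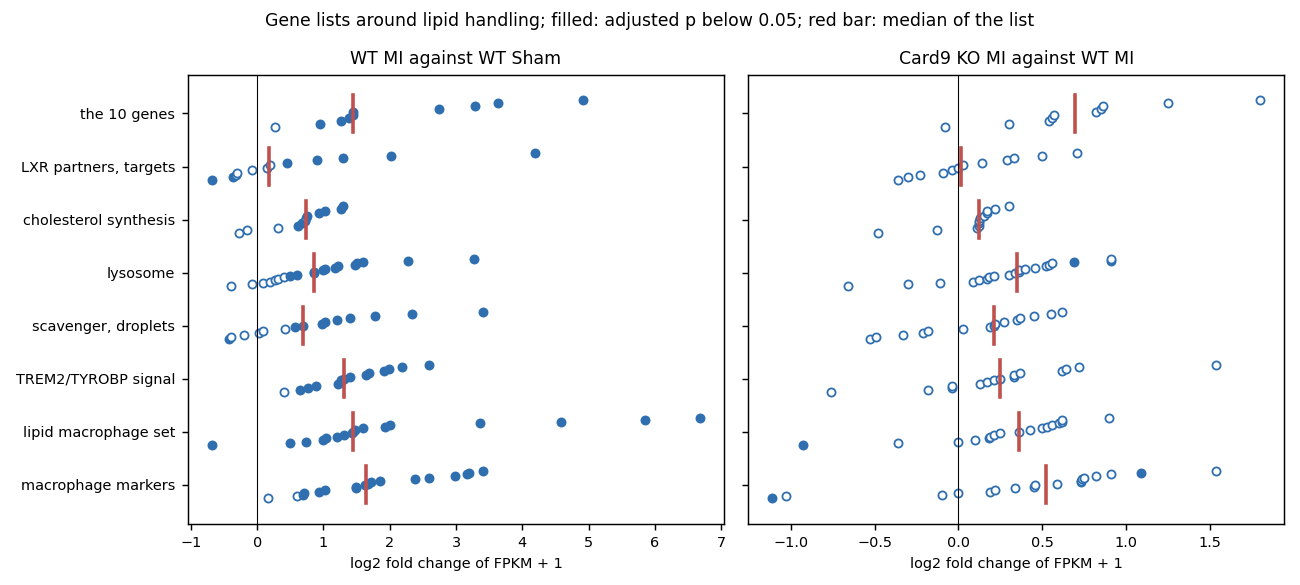
Log2 fold change of FPKM + 1 (horizontal axes, a scale of their own in each panel) of single genes in the 10-gene group, 6 lists of the pathways around it and the 18 macrophage markers. Filled points have an adjusted p below 0.05 and red bars are list medians. Most points are filled for WT MI against WT Sham, and few are for *Card9* KO MI against WT MI, where the bar of the 10 genes stands at 0.70 and that of the macrophage markers at 0.53.

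Marker lists of cell types differed in direction between the infarct groups. The macrophage markers had a median log2 fold change of 0.53. *Cx3cr1* (the fractalkine receptor) was called higher (log2 fold change 1.09, adjusted p = 0.034, limma). *Lyve1* (a hyaluronan receptor of resident macrophages) was called lower, falling by 1.11 on the log2 scale (adjusted p = 0.037, limma). At an unadjusted p below 0.05, 8 macrophage markers were higher and 2 were lower, *Lyve1* and *Cd163* (named after its values were seen). *Cd163* was 10.34 and 5.59 FPKM in the WT infarcts and 3.37 and 3.10 in the *Card9* KO infarcts. Neutrophil markers had a median of -0.61 over the 6 that could be tested. Their summed FPKM was 212 and 93.2 in the WT infarcts and 59.9 and 46.7 in the *Card9* KO infarcts, with 0 called by limma and 2 lower at an unadjusted p below 0.05. Of the 12 neutrophil markers, *Mpo*, *Ngp* and *Ltf* were at 0 or below 1 FPKM in every library, and *Ly6g*, *Elane* and *Camp* were listed in none. Of 8 fibroblast markers, 3 rose, namely *Postn*, *Col1a2* and *Col1a1* with log2 fold changes of 1.57, 1.09 and 1.06, and the sum of the list was 1479 and 2003 FPKM in the WT infarcts and 3188 and 3059 in the *Card9* KO infarcts. At an unadjusted p below 0.05, 5 fibroblast markers were higher and 1 was lower, *Pdgfra* (a growth factor receptor of fibroblasts, named after its values were seen), at 15.20 and 15.87 FPKM in the WT infarcts and 10.64 and 10.43 in the *Card9* KO infarcts. Of 6 smooth muscle and pericyte markers, *Tagln* and *Acta2* rose, 2 in all, and the sums were 277 and 261 against 519.9 and 499.8 FPKM. The number of smooth muscle and pericyte markers called was 0 without WT MI replicate 1 or without *Card9* KO MI replicate 1, 1 without replicate 2 of either group, and 2 without either WT Sham replicate. Cardiomyocyte markers summed to 57033 and 58460.2 FPKM in the sham hearts, 33201 and 34582 in the WT infarcts and 27435 and 31766 in the *Card9* KO infarcts, and 7 of 9 fell in WT MI. Between the infarct groups limma called 0 cardiomyocyte markers, and 4 were lower at an unadjusted p below 0.05, as were 1125 of all 13120 genes tested. With any 1 of the 4 infarct libraries left out, 0 macrophage markers and 0 to 2 fibroblast markers were called. Without WT Sham replicate 1 or without WT Sham replicate 2, 1 macrophage marker was called higher, 0 lower, and 1 fibroblast marker higher.

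In the remaining marker lists limma called 0 genes between the infarct groups, and at an unadjusted p below 0.05 1 endothelial and 1 dendritic cell marker were higher and 1 erythroid marker was lower. Summed levels over all libraries ranged from 278 to 344 FPKM for endothelial markers, from 4.49 to 7.22 for T and B cell markers, from 5.94 to 14.5 for dendritic cell markers and from 3.67 to 7.44 for Schwann cell markers. Erythroid markers, which trace blood left in the tissue, summed to 1554 and 2393 FPKM in the WT infarcts and to 1424 and 809 in the *Card9* KO infarcts. Adipocyte markers summed to between 1.27 and 17.2 FPKM, with overlapping groups. The part that the makeup of the tissue had in the levels of the 10 genes was not tested.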

How the data were processed

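RNA was sequenced from 6 mouse heart libraries, grouped and numbered by their labels. The authors enriched mRNA, mapped filtered reads to mm9 (per the labels with BWA and Bowtie2, versions not given in the sources used here) and deposited FPKM values by NCBI gene number, 1 column per library, listing genes above 0. Strand and gene annotation of the counting were not given in the sources used here. FPKM is relative to the total of a library, so a shift of abundant genes moves all others. The 10 most abundant genes held 16.1% and 16.4% of all FPKM in the sham hearts and 8.99% to 10.6% after MI. Missing genes were set to 0. Of the 17441 gene numbers, 17390 matched a symbol in a RefSeq table of GRCm38.p6, used for names. Positions are those of GENCODE for mm9.

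Values were tested as log2(FPKM + 1) with limma 3.58.1 in R 4.3.3 (lmFit, eBayes with trend, 3 groups in 1 fit) over the 13120 genes whose FPKM reached 1 in 2 or more libraries. Calls have a Benjamini-Hochberg adjusted p below 0.05 over all of them. All adjusted p-values in the text come from this test. An exact permutation test of 2 libraries against 2 cannot go below p = 0.333 and was not run. Data were simulated from *Card9* KO MI against WT MI, with 200 of 13120 genes changed. Of these, 91 of 94 changed 2-fold and 106 of 106 changed 4-fold were called, as were 10 unchanged genes. These rates do not carry over to the real libraries, where *Gpnmb* at 3.39-fold and *Fabp5* at 2.35-fold were not called. A gene without a call may therefore still differ by 2-fold or more. Depth was estimated from the steps between low FPKM values, with a largest error of 0.141% in 4 simulated libraries. Between 65.1% and 70.8% of low values lay within 0.1 of a whole fragment, so counts were not rebuilt. Intervals and fragments cover counting error only where they rest on depth. Tables and plots were made with Python 3.11.15, numpy 2.4.6, pandas 2.3.3 and matplotlib 3.10.9.

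The members and lists were chosen with earlier results of these data known. Genes named from a list are up to 3 by mean FPKM and up to 3 by absolute log2 fold change in each of *Card9* KO MI against WT MI and WT MI against WT Sham. Some genes that this rule names are not reported here. Alternatives were another added FPKM (0.1 or 5), other filters, other scalings, leaving the third group out of the fit, no trend in eBayes, a block for the replicate number, a minimum fold change of 2 on top of the adjusted p, and each library left out.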

Additional observations from a re-analysis of the deposited data

How the results depend on the processing

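With 2 libraries per group, calls between the infarct groups depended on the settings. In *Card9* KO MI against WT MI the main test called 0 of the 10 genes higher. With an added FPKM of 5 it called 1, with a mean FPKM of at least 5 it called 1, with only genes listed in all libraries it called 1, and with quantile normalization it called 1, each time *Apoe*, whose adjusted p ran from 0.034 to 0.30 over 18 alternatives (limma). The count was 8 or 9 higher against WT Sham in both other comparisons under every alternative, and 0 lower in all 3. *Abcg1* could not be tested at a mean FPKM of at least 5. The log2 fold change of *Nr1h3* in *Card9* KO MI against WT MI ran from -0.26 to 0.10 when 1 library was left out, and was above 0 when WT MI replicate 2 (0.05) or *Card9* KO MI replicate 1 (0.10) was missing. In *Card9* KO MI against WT Sham upper-quartile scaling gave -0.04 and quantile normalization gave -0.13, in place of 0.19. The cause of these changes was not tested.

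Over all genes, *Card9* KO MI against WT MI gave 107 higher and 77 lower in the main test, 47 and 33 with an added FPKM of 0.1, 200 and 112 with 5, 7 and 5 with no filter, 148 and 136 with a mean FPKM of at least 5, 163 and 134 with only genes listed in all libraries, 69 and 32 with only the groups compared, 40 and 18 without the trend, 61 and 35 with a fold change of at least 2, and 3 to 63 higher and 5 to 33 lower with 1 library left out. A fold change of at least 2 gave 1529 and 178 in WT MI against WT Sham and 2128 and 416 in *Card9* KO MI against WT Sham. Scaling moved the median log2 fold change of all genes in WT MI against WT Sham from 0.19 to 0.00 (upper quartile), -0.09 (quantile) and 0.06 (without the 100 most abundant genes). In *Card9* KO MI against WT Sham it moved from 0.24 to 0.03, -0.10 and 0.09, with 3230 higher and 2884 lower, 2755 and 3444, and 3642 and 2527 called, in place of 4569 and 1875.

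With the replicate number as a replicate block, 9 of the 10 genes were called higher in WT MI against WT Sham, 0 in *Card9* KO MI against WT MI and 9 in *Card9* KO MI against WT Sham, and over all genes 45 were higher and 26 lower between the infarct groups. Deviations of libraries with the same number correlated at 0.00, -0.01 and 0.02, so no shift shared by the number was seen over all genes. A pairing that affected only some genes would not show in this correlation. Dividing by 4 macrophage markers in place of 18 shifted every gene of a comparison by the same amount on the log2 scale. That shift was larger than the spread between replicates for 24 of the 30 ratio differences, which are not separate results.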
